A study of Mus musculus with 16 samples.

Results

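Described here are 39 genes of fatty acid oxidation and of the PPAR alpha program in mouse liver, 39 of the 24970 genes that the deposited transcript table resolves to. They were taken by name: rows of the table were joined to mouse gene symbols, the row with the highest mean count stood for each gene, and the symbols on the list were kept. The selection reads names alone, but the list was drawn up with earlier results of these data known. All 39 were found and all 39 passed the filter on low counts, among 12913 genes tested.

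The study sequenced polyadenylated RNA from snap-frozen livers of 16 mice in 4 groups of 4. Wild-type C57BL/6 Ntac mice and humanized PXR-CAR-CYP3A4/3A7 mice, in which the nuclear receptors PXR and CAR and the drug-metabolizing CYP3A4/3A7 genes are humanized, each received vehicle or TCPOBOP, a synthetic agonist of mouse CAR. TCPOBOP was given at 3 mg/kg in 2 administrations that were 24 h apart, the treatment lasted 48 h, and the vehicle given to controls was corn oil with 2% DMSO. The sources used here do not give how the human genes were introduced, nor the sex, age, feeding state and time of day at which livers were taken. Xist was at most 0.622 CPM and 4 Y-linked genes were detected in each of the 16 libraries.

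Fatty acids enter hepatocytes, are activated to acyl-CoA, and are carried into mitochondria as carnitine esters or into peroxisomes by ABC transporters. Each turn of beta-oxidation then needs a dehydrogenase or oxidase, a hydratase, another dehydrogenase and a thiolase, while auxiliary isomerases and reductases handle double bonds and thioesterases release free acids. PPAR alpha, a fatty acid-sensing nuclear receptor that pairs with RXR, is the main transcriptional activator of these genes in liver and is best known for its role in the fasting response.

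Expression is given in CPM, counts scaled to the gene-level total of each library with TMM factors (CPM in its usual sense), listed in the order of replicates 1 to 4. Differences are on the log2 scale ± SE, and each adjusted p is a two-sided Benjamini-Hochberg value of edgeR's quasi-likelihood test over all 12913 genes, with 0.05 as the threshold for a call. Each p-value sets a difference against the spread between livers within groups, with 1 estimate per gene that all 4 groups share. Leaving out a library of 1 group can therefore change calls between other groups. The interaction is the TCPOBOP effect in humanized liver minus that in wild-type liver. Positive values mean that TCPOBOP lowered a gene less, or raised it more, in humanized liver.

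Total counts over all transcripts ranged from 11827994 to 37998473 per library, and the 4 wild-type TCPOBOP libraries, at 30228724 or more, were the deepest. Mouse Nr1i3, which encodes CAR, was at 93.4 to 107 CPM in wild-type vehicle and 1.63 to 5.02 CPM in all humanized livers, and Nr1i2, which encodes PXR, was at 107 to 195 CPM in wild-type and 14.5 to 23.2 CPM in humanized livers. Cyp2b10, the classical CAR target, went from 16.4 to 89.9 CPM under vehicle to 2871 to 3561 CPM under TCPOBOP in wild-type liver and from 14.9 to 23.1 CPM to 63.3 to 201 CPM in humanized liver. Wild-type vehicle replicate 2 and humanized TCPOBOP replicate 1 stood apart from their groups, with gene deviations of 0.72 and 0.66 (SD, log2) against 0.15 to 0.38 in the other 14 libraries. Within the humanized TCPOBOP group, deviations followed transcript length in opposite directions across genes (Spearman's rho -0.45 and -0.42 in replicates 1 and 2, and 0.41 and 0.47 in replicates 3 and 4, against -0.15 to 0.13 in the other libraries). Results were therefore also computed without the 2 libraries that stood apart, an alternative chosen after seeing the data.

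In wild-type liver, TCPOBOP lowered 16 of the 39 genes and raised none, among them Ppara itself, the carnitine shuttle genes Cpt1a and Slc25a20, and the thioesterases Acot1, Acot2 and Acot3. In that comparison 4.99% of all tested genes were called lower and 8.1% higher, whereas 41.0% of the members were called lower. The median log2 difference was -0.54 over the members and -0.02 over all genes, and 35 of 39 members lay below 0. In humanized liver, 2 members rose (Bdh1 and Vnn1) and 2 fell (Abcd2 and Pdk4), where 1.32% of all genes were called higher and 1.19% lower. The members' median was 0.25 there, with 30 of 39 above 0, and 35 members passed in neither direction. With all libraries thinned to 1 depth, 19 members were called lower in wild-type liver (4.92% of all genes were). Upper-quartile in place of TMM factors moved the split of calls in humanized liver from 2 higher and 2 lower members to 1 and 2, and from 171 higher and 154 lower genes to 97 and 190. DESeq2 gave 5 and 3 members and 483 and 282 genes there. Without the 2 libraries that stood apart, 24 members were called lower in wild-type liver (9.98% of all genes were), and 10 higher and 4 lower in humanized liver (9.97% and 6.46% of all genes). Dropping 1 library at a time gave 11 to 22 members lower in wild-type liver (2.55% to 6.86% of all genes), and 0 to 6 higher and 0 to 3 lower in humanized liver (0.261% to 4.97% and 0.307% to 2.38% of all genes), where the most higher members were found without liver 2 of wild-type vehicle.

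The strain difference in the TCPOBOP effect was itself called for 16 members, all in the positive direction, where 3.48% of all tested genes were called higher and 3.98% lower. These 16 were Ppara, Slc27a2, Fabp1, Cpt1a, Slc25a20, Acads, Hadh, Acaa2, Etfdh, Eci2, Ech1, Hsd17b4, Acaa1a, Pex11a, Acot1 and Bdh1. The median interaction was 0.93 over the members. At an unadjusted p under 0.05 the interaction of 27 of 39 members passed, as did that of 21.2% of all genes. Under vehicle, humanized livers had lower Ppara, Acsl1, Hadha, Etfdh, Abcd3, Ehhadh, Bdh1 and Vnn1 than wild-type livers and higher Pdk4, that is 8 members lower and 1 higher, against 8.95% and 7.11% of all genes. With upper-quartile factors 5 members were lower, and the split over all genes was 1153 higher and 951 lower in place of 918 and 1156. The vehicle groups enter both this comparison and the TCPOBOP comparisons, so their values are not independent of each other. Without the 2 libraries that stood apart the interaction was called higher for 25 members (12.2% of all genes), and under vehicle 16 members were lower and 3 higher in humanized liver (16.7% and 17.9% of all genes). Dropping 1 library at a time gave 6 to 22 members with a higher interaction, fewest without liver 4 of wild-type TCPOBOP (2.06% of all genes) and most without liver 2 of wild-type vehicle (6.31%). Under vehicle it gave 1 to 13 members lower, fewest without liver 1 of humanized vehicle (2.89% of all genes, near the members' own share) and most without liver 2 of wild-type vehicle (10.4%).

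**Figure D1:**
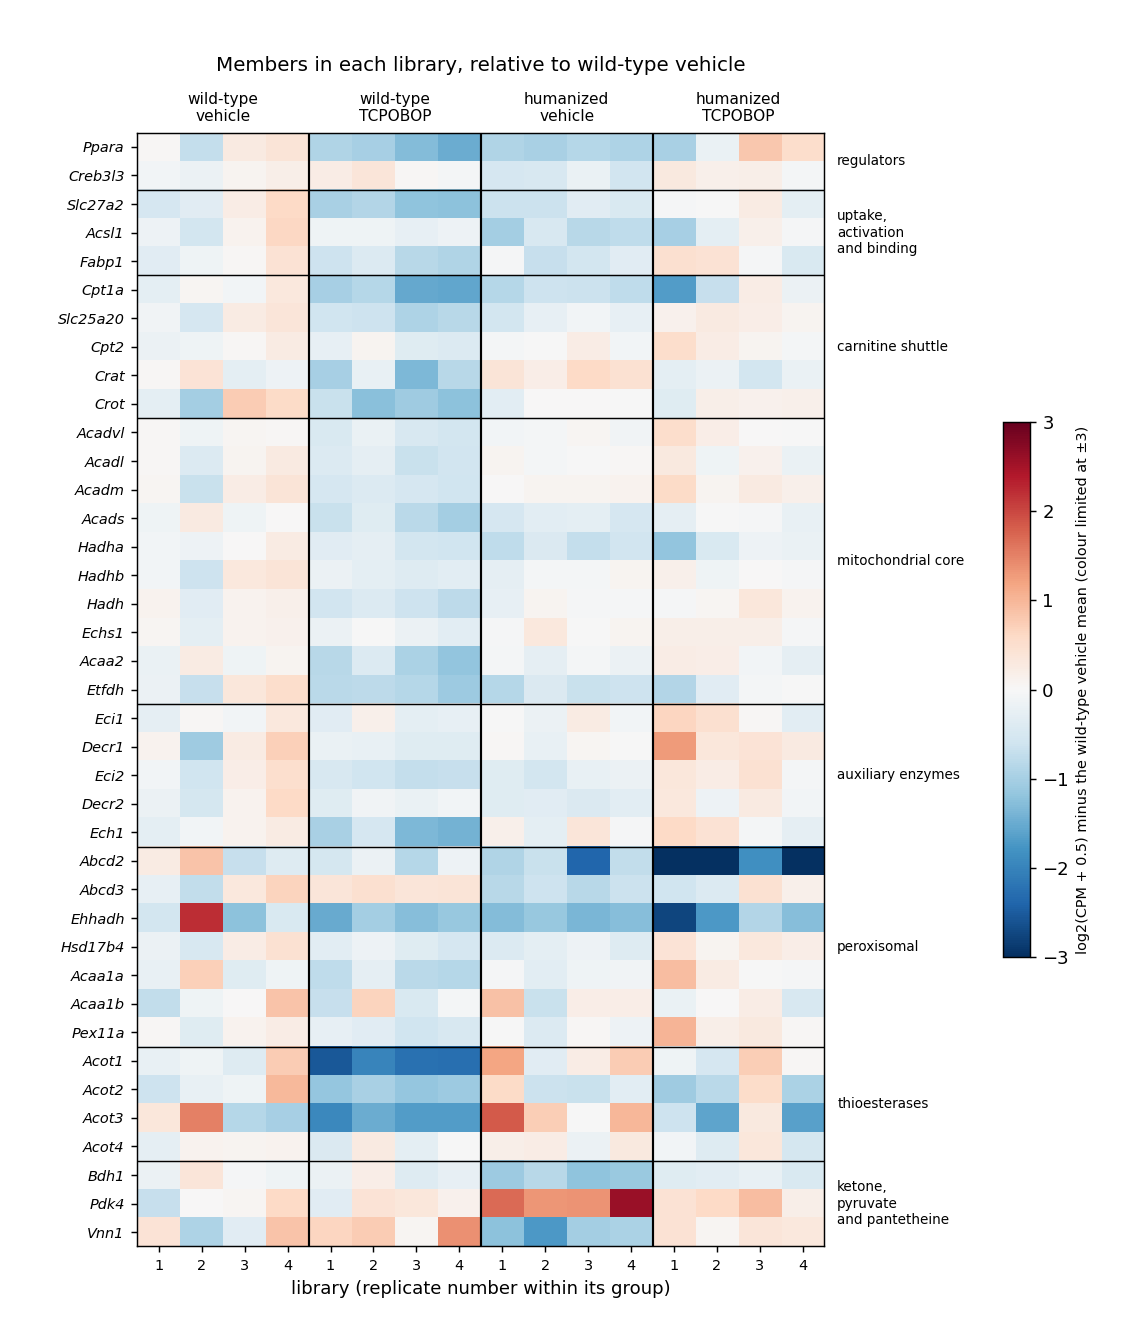
Each row is a member and each column a library; colour gives log2(CPM + 0.5) minus the mean of the 4 wild-type vehicle libraries, limited at ±3, with rows grouped by role. The wild-type TCPOBOP columns are below 0 in most rows, most deeply for Acot1 and Acot3, while Abcd2 is deeply below 0 in humanized TCPOBOP livers and Pdk4 is above 0 in humanized vehicle livers. Ehhadh in wild-type vehicle replicate 2 stands out above 0.

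The spread within groups was uneven, as the map of members by library shows. Wild-type vehicle replicate 4 held the highest level of its group for 28 of the 39 members, and replicate 2 the lowest for 20. Among wild-type TCPOBOP livers, replicate 2 was highest for 29 members. The median coefficient of variation over the members was 28.7% in wild-type vehicle, 13.8% in wild-type TCPOBOP, 11.2% in humanized vehicle and 20% in humanized TCPOBOP livers. Per kilobase of transcript, the wild-type vehicle level of the 37 members with a known length ran from 1.06 CPM per kilobase for Acot2 to 2734 for Fabp1. Among the members most abundant by this measure were also Acaa2 at 490.1 and Slc27a2 at 399 CPM per kilobase.

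Among the regulators, Ppara (chr15:85734910-85806851 on GRCm38.p6) was called in every comparison except TCPOBOP against vehicle within humanized liver. Ppara was at 281, 167, 331 and 354 CPM in wild-type vehicle and at 147, 136, 111 and 96.8 CPM in wild-type TCPOBOP livers. Humanized livers held Ppara at 146, 138, 150.3 and 143 CPM under vehicle and at 139, 238, 478 and 394 CPM under TCPOBOP. All wild-type TCPOBOP livers were below all wild-type vehicle livers, humanized vehicle livers were tightly grouped below wild-type vehicle, and humanized TCPOBOP livers spread from the humanized vehicle level to above every other library. Ppara fell with TCPOBOP in wild-type liver (log2 -1.21 ± 0.30, 2.31-fold lower, adjusted p = 0.0111) and was lower in humanized than in wild-type vehicle liver (log2 -0.97 ± 0.30, 1.96-fold lower, adjusted p = 0.0366). The difference within humanized liver did not pass (log2 1.11 ± 0.30, adjusted p = 0.058), but the interaction did, at log2 2.32 ± 0.43, adjusted p = 0.00262. Humanized TCPOBOP replicates 1 and 2, the pair with the negative trend on transcript length, held the lower Ppara levels of that group, and the part of this trend in the spread was not tested. The Ppara vehicle difference was not called without liver 1, 2, 3 or 4 of humanized vehicle, or liver 1, 3 or 4 of wild-type vehicle (7 of 16 fits that each left out 1 library, log2 -1.17 to -0.85 over the 16). The wild-type difference and the interaction of Ppara passed in all 16 fits. Without the 2 libraries that stood apart Ppara was called higher with TCPOBOP in humanized liver, at 1.37 on the log2 scale.

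Creb3l3, a liver transcription factor of the endoplasmic reticulum membrane that acts with PPAR alpha in fasting, did not pass in any comparison. Creb3l3 was at 299, 283, 337 and 360.3 CPM in wild-type vehicle and at 374, 408, 327 and 307 CPM in wild-type TCPOBOP livers. Humanized livers held Creb3l3 at 223, 226, 276 and 215 CPM under vehicle and at 392, 355, 361 and 307 CPM under TCPOBOP. The humanized groups did not overlap, with TCPOBOP higher (log2 0.59 ± 0.15, adjusted p = 0.0501). In wild-type liver the groups overlapped (log2 0.15 ± 0.15, adjusted p = 0.632), and the interaction was log2 0.44 ± 0.22, adjusted p = 0.252.

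Of the uptake, activation and binding genes, Slc27a2 (chr2:126553024-126588243), an acyl-CoA synthetase and fatty acid transporter, fell in wild-type liver. Slc27a2 was at 788, 882, 1296 and 1694 CPM in wild-type vehicle and at 565, 601, 481 and 470.4 CPM in wild-type TCPOBOP livers. Humanized livers held Slc27a2 at 712, 709.8, 884 and 804 CPM under vehicle and at 1085, 1094, 1319 and 914 CPM under TCPOBOP. TCPOBOP livers lay below all vehicle livers in the wild-type and above all vehicle livers in the humanized mice. The wild-type difference was called (log2 -1.14 ± 0.22, 2.20-fold lower, adjusted p = 0.00166), the humanized difference was not (log2 0.50 ± 0.22, adjusted p = 0.232), and the interaction was called (log2 1.64 ± 0.31, adjusted p = 0.00324) in all 16 fits that left out a library.

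Fabp1, the abundant cytosolic fatty acid binding protein of liver, was called for the interaction alone. Fabp1 was at 1165, 1364, 1523 and 1996 CPM in wild-type vehicle and at 965, 1107, 838 and 789.6 CPM in wild-type TCPOBOP livers. Humanized livers held Fabp1 at 1437, 916, 1011 and 1168 CPM under vehicle and at 2082, 2011, 1444 and 1079 CPM under TCPOBOP. Its wild-type groups did not overlap, with all TCPOBOP livers lower, and in humanized liver 3 of 4 TCPOBOP livers were above all vehicle livers. Neither difference passed by itself (log2 -0.71 ± 0.23, adjusted p = 0.053, and log2 0.55 ± 0.23, adjusted p = 0.225), whereas the interaction did (log2 1.25 ± 0.33, adjusted p = 0.026). The Fabp1 interaction was not called without liver 3 or 4 of humanized vehicle, liver 4 of wild-type vehicle, or liver 3 or 4 of wild-type TCPOBOP (5 of 16 fits that each left out 1 library, log2 1.09 to 1.41 over the 16).

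PPAR alpha with RXR binds direct repeats of the half-site AGGTCA spaced by 1 base. Upstream windows from 250 bases before to 50 bases after the start site, taken from RefSeq on build GRCm38.p6, were held for 33 of the 39 members (38 windows) and were searched for this 13-base pattern on both strands, without counting the spacer base. Allowing 1 mismatch over the 12 compared bases, the only member with a match was Fabp1, where 0.55% of 32851 windows of all genes had one. Allowing 2 mismatches, 5 of 38 member windows (13.2%) had a match, 1 window for each of 5 members, where 3.86% of all windows had one. No member had an exact match, and 0.04% of all windows did. The Fabp1 match begins 67 bases before the start site, at chr6:71199812-71199824, in the antisense orientation, and it is shown with the 60 bases before it (chr6:71199752-71199824, plus strand, the repeat in capitals) because Fabp1 was both the most abundant member and 1 of the 16 whose TCPOBOP effect differed between strains.
Fabp1: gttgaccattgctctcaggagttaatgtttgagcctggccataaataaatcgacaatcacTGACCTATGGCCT
The other 4 matches, each with 2 mismatches, are given as the repeat alone, 5′ to 3′ on the strand of the gene. Slc25a20 is among the 16 interaction genes, and Creb3l3, Echs1 and Acot4 are not.
Slc25a20: AGGTGAAAGGTCG
Creb3l3: AGGGGAGAGGTCA
Echs1: AGGTCACGGGTCC
Acot4: TGACCTTTGGCCG
They lie at chr9:108662142-108662154 for Slc25a20 (6 bases past the start site), chr10:81092788-81092800 for Creb3l3 (minus strand), chr7:140116492-140116504 for Echs1 (minus strand) and chr12:84038366-84038378 for Acot4 (antisense to the gene). A match is a description of these letters and not a measured binding site.

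**Figure D2:**
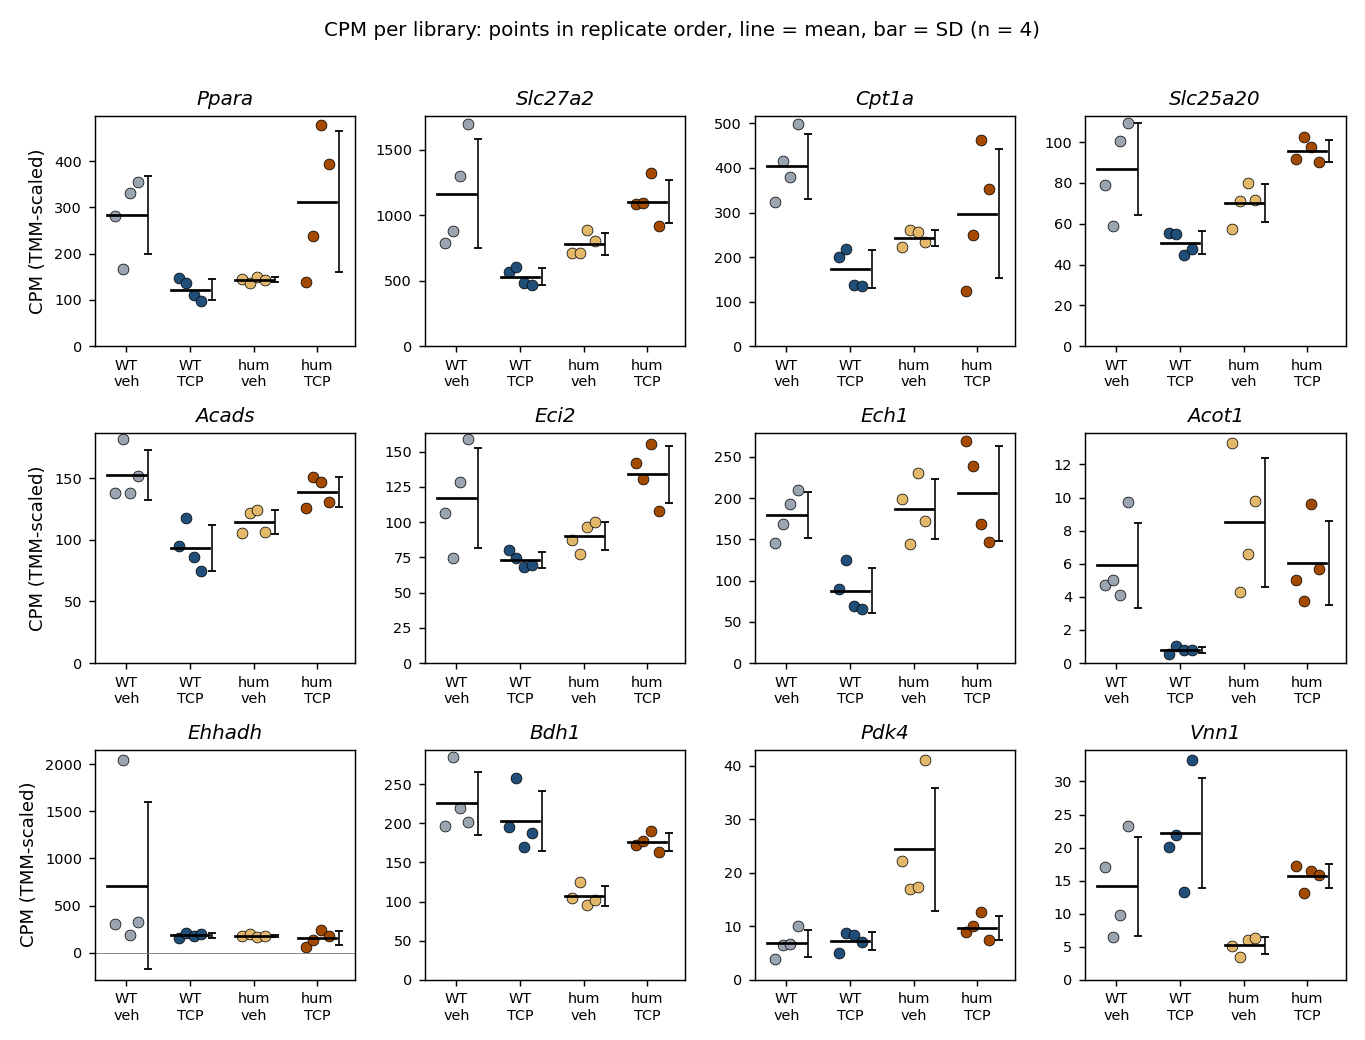
CPM in each library for 12 members, a panel each, with points in replicate order, a line at the mean and a bar of 1 SD (n = 4); WT is wild-type, hum humanized, veh vehicle and TCP TCPOBOP. Ppara in wild-type TCPOBOP livers sits between 96.8 and 147 CPM, below all wild-type vehicle livers, and a single wild-type vehicle library reaches 2041 CPM for Ehhadh.

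In the carnitine shuttle, 4 of 5 genes fell in wild-type liver, where 4.99% of all genes did. None was called in humanized liver, where only 1.32% of all genes were called higher and 1.19% lower. Cpt1a (chr19:3322326-3385735), the outer-membrane carnitine palmitoyltransferase that limits the rate of mitochondrial entry, fell 2.33-fold. Cpt1a was at 323, 416, 379 and 498 CPM in wild-type vehicle and at 200.2, 219, 137 and 136 CPM in wild-type TCPOBOP livers. Humanized livers held Cpt1a at 222, 260.3, 257 and 235 CPM under vehicle and at 125, 249, 464 and 352 CPM under TCPOBOP. Every wild-type TCPOBOP liver was below every vehicle liver, while the humanized TCPOBOP livers ran from below to above the humanized vehicle range, with replicate 2 inside it. The wild-type difference was log2 -1.22 ± 0.29, 2.33-fold lower, adjusted p = 0.00824, the humanized difference log2 0.29 ± 0.29, adjusted p = 0.653 and the interaction log2 1.51 ± 0.41, adjusted p = 0.0302. The Cpt1a interaction was not called without liver 1, 3 or 4 of humanized vehicle, liver 3 or 4 of humanized TCPOBOP, liver 4 of wild-type vehicle, or liver 3 or 4 of wild-type TCPOBOP (8 of 16 fits that each left out 1 library, log2 1.21 to 1.80 over the 16). As for Ppara, humanized TCPOBOP replicates 1 and 2 were the lower pair.

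Slc25a20 (chr9:108662136-108684642), the translocase that exchanges acylcarnitine for carnitine across the inner membrane, also fell in wild-type liver. Slc25a20 was at 78.9, 59.1, 100.4 and 109 CPM in wild-type vehicle and at 55.6, 55.2, 44.6 and 47.6 CPM in wild-type TCPOBOP livers. Humanized livers held Slc25a20 at 57.6, 71.3, 79.9 and 71.8 CPM under vehicle and at 91.8, 102, 97.8 and 90.3 CPM under TCPOBOP. The groups did not overlap in either strain, with TCPOBOP lower in wild-type and higher in humanized liver. TCPOBOP lowered Slc25a20 in wild-type liver (log2 -0.78 ± 0.18, 1.71-fold lower, adjusted p = 0.00614), the humanized difference did not pass (log2 0.45 ± 0.18, adjusted p = 0.191), and the interaction did (log2 1.22 ± 0.25, adjusted p = 0.00582). Crot and Crat, the peroxisomal octanoyl and the acetyl transferases, also fell in wild-type liver, with log2 differences of -1.19 and -0.83. Neither was called with the compared groups alone, nor was Crat without liver 3 or 4 of wild-type TCPOBOP. The humanized Crat groups did not overlap, with TCPOBOP lower, but the difference did not pass (log2 -0.73 ± 0.22, adjusted p = 0.0827), and the interaction was log2 0.10 ± 0.30, adjusted p = 0.905.

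Of the 10 genes of the mitochondrial core, Acads, Hadh, Acaa2 and Etfdh fell in wild-type liver, and the same 4 were the ones called for the interaction. Of all genes, 4.99% were called lower in wild-type liver and 3.48% higher for the interaction. All 10 core genes lay below 0 in wild-type and above 0 in humanized liver. In humanized liver none passed (1.32% of all genes were called higher) and the log2 differences ran from 0.02 to 0.36. Acads, the short-chain acyl-CoA dehydrogenase, showed this at moderate levels. Acads was at 138, 181, 138 and 152 CPM in wild-type vehicle and at 94.8, 118, 86.1 and 74.4 CPM in wild-type TCPOBOP livers. Humanized livers held Acads at 106, 122, 124 and 107 CPM under vehicle and at 126, 151, 147 and 131 CPM under TCPOBOP. TCPOBOP livers were below all vehicle livers in the wild-type and above all vehicle livers in the humanized strain. The wild-type fall was log2 -0.71 ± 0.16, 1.63-fold lower, adjusted p = 0.00564 and the interaction log2 0.98 ± 0.23, adjusted p = 0.0119, and both passed in all 16 fits that left out 1 library. The humanized difference of Acads was log2 0.28 ± 0.16, adjusted p = 0.391.

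Acadm, the medium-chain dehydrogenase, was not called in any comparison. Acadm was at 206, 124, 233 and 262 CPM in wild-type vehicle and at 141, 149, 139.9 and 132 CPM in wild-type TCPOBOP livers. Humanized livers held Acadm at 199.8, 212, 209.7 and 213 CPM under vehicle and at 296, 210.4, 241 and 220.1 CPM under TCPOBOP. Wild-type vehicle replicate 2 lay below all TCPOBOP livers of that strain and the other 3 vehicle livers lay above them (log2 -0.56 ± 0.19, adjusted p = 0.0636). The humanized difference was log2 0.21 ± 0.19, adjusted p = 0.604. Without the 2 libraries that stood apart Acadm was called lower in wild-type liver, at -0.74 on the log2 scale.

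Hadha, the alpha subunit of the trifunctional protein that catalyses hydration and dehydrogenation of long chains, was lower in humanized than in wild-type vehicle liver. Hadha was at 296, 283, 314 and 369 CPM in wild-type vehicle and at 249.9, 262, 214 and 206 CPM in wild-type TCPOBOP livers. Humanized livers held Hadha at 186, 233, 192 and 211 CPM under vehicle and at 137, 228, 281 and 275 CPM under TCPOBOP. The vehicle groups did not overlap (log2 -0.62 ± 0.20, 1.53-fold lower, adjusted p = 0.0423). The Hadha vehicle difference was not called without liver 1, 3 or 4 of humanized vehicle, liver 1, 3 or 4 of wild-type vehicle, or liver 1, 3 or 4 of wild-type TCPOBOP (9 of 16 fits that each left out 1 library, log2 -0.70 to -0.53 over the 16), nor with upper-quartile factors or with no low-count filter. Within wild-type liver the TCPOBOP groups did not overlap either, but the difference did not pass (log2 -0.44 ± 0.20, adjusted p = 0.168). Humanized TCPOBOP replicate 1, at 137 CPM, was the lowest of all 16 libraries. Hadhb, the neighbouring gene for the beta subunit, was called in no comparison.

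Hadh, the short-chain hydroxyacyl-CoA dehydrogenase, fell in wild-type liver. Hadh was at 251, 184, 251 and 259.7 CPM in wild-type vehicle and at 158, 177, 151 and 137 CPM in wild-type TCPOBOP livers. Humanized livers held Hadh at 196, 246, 229 and 230.4 CPM under vehicle and at 230.2, 245, 297 and 252 CPM under TCPOBOP. The wild-type groups did not overlap although vehicle replicate 2 was close to the highest TCPOBOP liver. The wild-type difference was log2 -0.60 ± 0.16, 1.52-fold lower, adjusted p = 0.0144, the humanized difference log2 0.18 ± 0.16, adjusted p = 0.578 and the interaction log2 0.79 ± 0.22, adjusted p = 0.0354. The Hadh wild-type difference was not called without liver 3 or 4 of wild-type TCPOBOP (2 of 16 fits that each left out 1 library, log2 -0.71 to -0.54 over the 16). The Hadh interaction was not called without liver 1, 3 or 4 of humanized vehicle, liver 3 or 4 of humanized TCPOBOP, liver 1, 3 or 4 of wild-type vehicle, or liver 1, 3 or 4 of wild-type TCPOBOP (11 of 16 fits that each left out 1 library, log2 0.71 to 0.91 over the 16), nor with upper-quartile factors or with no low-count filter.

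Acaa2, a mitochondrial thiolase, had the highest wild-type vehicle level per kilobase of the core genes. Acaa2 was at 645, 869.8, 679 and 778 CPM in wild-type vehicle and at 418, 553, 381 and 326 CPM in wild-type TCPOBOP livers. Humanized livers held Acaa2 at 713, 615, 706 and 654 CPM under vehicle and at 865, 843, 702 and 613 CPM under TCPOBOP. All wild-type TCPOBOP livers were below all vehicle livers, and the humanized groups overlapped. As for Fabp1, humanized TCPOBOP replicates 1 and 2 were the higher pair. Acaa2 fell in wild-type liver (log2 -0.83 ± 0.18, 1.77-fold lower, adjusted p = 0.00521), with log2 0.17 ± 0.18, adjusted p = 0.684 in humanized liver and an interaction of log2 0.99 ± 0.26, adjusted p = 0.0253. The Acaa2 interaction was not called without liver 4 of humanized vehicle, or liver 3 or 4 of wild-type TCPOBOP (3 of 16 fits that each left out 1 library, log2 0.89 to 1.16 over the 16).

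Etfdh, which passes electrons from the acyl-CoA dehydrogenases to ubiquinone, was called in 3 of the 4 comparisons. Etfdh was at 189.6, 131, 271 and 305 CPM in wild-type vehicle and at 122, 124, 117 and 100.5 CPM in wild-type TCPOBOP livers. Humanized livers held Etfdh at 118, 158, 135 and 138 CPM under vehicle and at 115, 169, 205 and 213 CPM under TCPOBOP. Wild-type TCPOBOP livers were all below wild-type vehicle, whose replicate 2 was closest to them, and 1 humanized vehicle liver was below all wild-type vehicle livers. Etfdh fell in wild-type liver (log2 -0.95 ± 0.24, 1.93-fold lower, adjusted p = 0.0109), the interaction was log2 1.31 ± 0.33, adjusted p = 0.0219, and humanized vehicle livers were lower than wild-type ones (log2 -0.71 ± 0.24, 1.64-fold lower, adjusted p = 0.0481). The Etfdh interaction was not called without liver 1 of humanized vehicle, liver 3 or 4 of wild-type vehicle, or liver 4 of wild-type TCPOBOP (4 of 16 fits that each left out 1 library, log2 1.12 to 1.52 over the 16). The Etfdh vehicle difference was not called without liver 1, 2, 3 or 4 of humanized vehicle, liver 2 of humanized TCPOBOP, liver 1, 3 or 4 of wild-type vehicle, or liver 1, 2, 3 or 4 of wild-type TCPOBOP (12 of 16 fits that each left out 1 library, log2 -0.91 to -0.53 over the 16), nor with upper-quartile factors, with no low-count filter or with the compared groups alone. Etfdh did not pass in humanized liver (log2 0.36 ± 0.23, adjusted p = 0.459).

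Among the auxiliary enzymes for unsaturated chains, Eci2 and Ech1 fell in wild-type liver (4.99% of all genes did) and were called for the interaction (3.48% were higher). Eci2 is an enoyl-CoA isomerase. Eci2 was at 106, 74.3, 128 and 159 CPM in wild-type vehicle and at 80.4, 74.5, 68.3 and 69.4 CPM in wild-type TCPOBOP livers. Humanized livers held Eci2 at 87.2, 77.3, 96.4 and 99.8 CPM under vehicle and at 142, 131, 156 and 108 CPM under TCPOBOP. Its wild-type vehicle replicate 2, at 74.3 CPM, lay within the TCPOBOP range, and the humanized groups did not overlap. The wild-type difference was log2 -0.68 ± 0.20, 1.60-fold lower, adjusted p = 0.0271, the humanized difference log2 0.57 ± 0.20, adjusted p = 0.129 and the interaction log2 1.25 ± 0.28, adjusted p = 0.00978. The Eci2 wild-type difference was not called without liver 3 or 4 of wild-type vehicle, or liver 2, 3 or 4 of wild-type TCPOBOP (5 of 16 fits that each left out 1 library, log2 -0.84 to -0.49 over the 16), nor with the compared groups alone. The interaction passed in all 16 fits.

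Ech1, a dienoyl-CoA isomerase, had no overlap between the wild-type groups. Ech1 was at 146, 169, 193 and 210.1 CPM in wild-type vehicle and at 90.0, 125, 69.5 and 65.6 CPM in wild-type TCPOBOP livers. Humanized livers held Ech1 at 199, 145, 230.1 and 172 CPM under vehicle and at 269, 239, 169 and 146 CPM under TCPOBOP. All wild-type TCPOBOP livers were below all vehicle livers, and humanized livers of both treatments spanned a similar range. As for Fabp1 and Acaa2, humanized TCPOBOP replicates 1 and 2 were the higher pair. Ech1 fell in wild-type liver (log2 -1.03 ± 0.24, 2.05-fold lower, adjusted p = 0.00607), the humanized difference was log2 0.14 ± 0.23, adjusted p = 0.814 and the interaction log2 1.18 ± 0.33, adjusted p = 0.0373. The Ech1 interaction was not called without liver 1, 2 or 4 of humanized vehicle, liver 2 of humanized TCPOBOP, liver 3 or 4 of wild-type vehicle, or liver 1, 3 or 4 of wild-type TCPOBOP (9 of 16 fits that each left out 1 library, log2 1.05 to 1.40 over the 16). Eci1, Decr1 and Decr2 were called in no comparison.

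**Figure D3:**
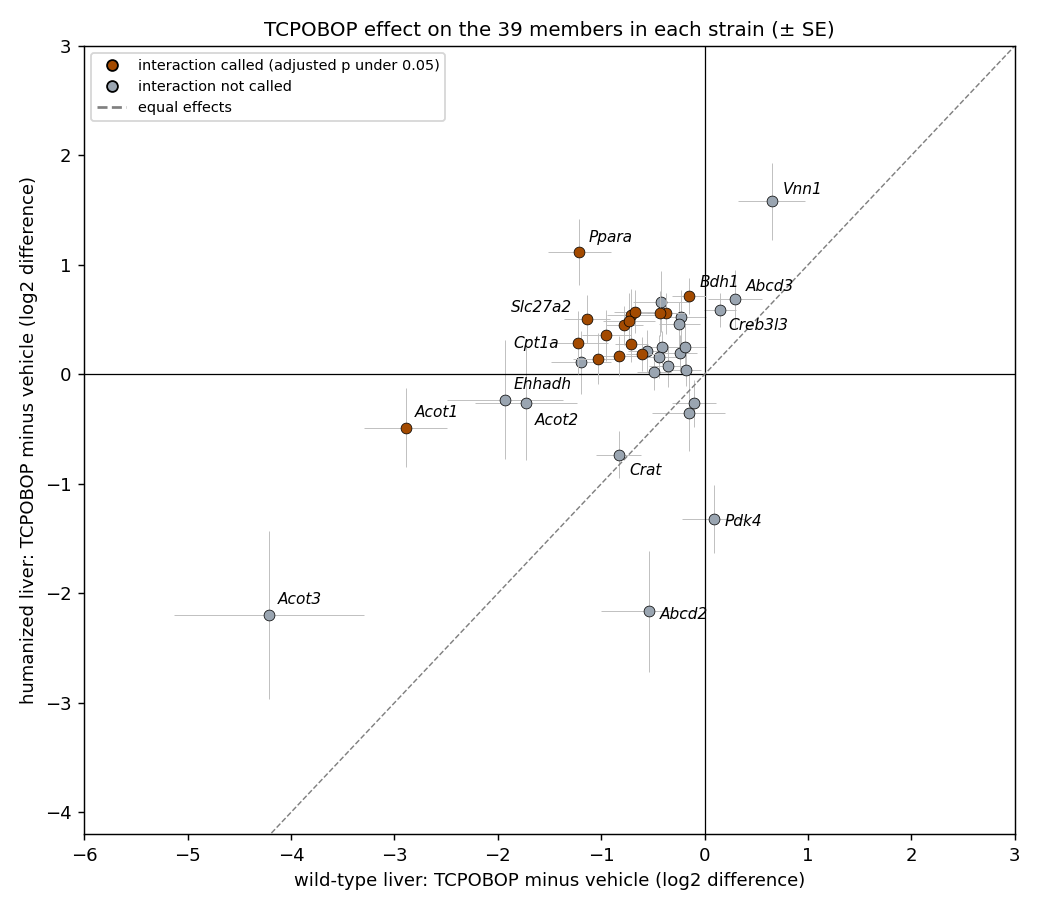
Each point is a member, with its TCPOBOP minus vehicle log2 difference in wild-type liver on the x axis and in humanized liver on the y axis, bars of 1 SE, and the dashed line marking equal effects. The 16 members called for the interaction (dark orange) all lie above the dashed line, from Hadh at 0.79 to Acot1 at 2.40, and Ppara is at -1.21 and 1.11.

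Peroxisomal members were less uniform. Ehhadh (chr16:21761285-21787834), the bifunctional hydratase and dehydrogenase of peroxisomes, was called lower in wild-type liver and lower in humanized than in wild-type vehicle liver, and the size of both differences rested on 1 library. Ehhadh was at 301, 2041, 186 and 321 CPM in wild-type vehicle and at 154, 214, 180.1 and 199 CPM in wild-type TCPOBOP livers. Humanized livers held Ehhadh at 176, 198, 168 and 180.1 CPM under vehicle and at 64.7, 132, 239 and 179 CPM under TCPOBOP. Wild-type vehicle replicate 2, at 2041 CPM, stood far above the next highest library, at 321 CPM. With it the wild-type difference was log2 -1.93 ± 0.56, 3.81-fold lower, adjusted p = 0.0286 and the vehicle difference log2 -1.98 ± 0.56, 3.95-fold lower, adjusted p = 0.027. Without it they were -0.53 and -0.58 on the log2 scale, and neither passed. Leaving out humanized TCPOBOP replicate 1 as well gave -0.53 and -0.57, of which only the vehicle difference was called. The Ehhadh wild-type difference was not called without liver 2 of wild-type vehicle, or liver 1, 2, 3 or 4 of wild-type TCPOBOP (5 of 16 fits that each left out 1 library, log2 -2.25 to -0.53 over the 16), nor with the compared groups alone. The Ehhadh vehicle difference was not called without liver 1, 3 or 4 of humanized vehicle, or liver 2 of wild-type vehicle (4 of 16 fits that each left out 1 library, log2 -2.30 to -0.58 over the 16).

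Hsd17b4, the other peroxisomal bifunctional enzyme, which handles branched and very long chains, was called for the interaction alone. Hsd17b4 was at 333, 269, 438 and 516 CPM in wild-type vehicle and at 304, 339.9, 292 and 265 CPM in wild-type TCPOBOP livers. Humanized livers held Hsd17b4 at 285, 310.1, 338 and 289.7 CPM under vehicle and at 501, 398, 469 and 432 CPM under TCPOBOP. The wild-type groups overlapped, and all humanized TCPOBOP livers were above all humanized vehicle livers. The TCPOBOP difference was log2 -0.37 ± 0.18, adjusted p = 0.22 in wild-type and log2 0.56 ± 0.19, adjusted p = 0.117 in humanized liver, and the interaction log2 0.93 ± 0.26, adjusted p = 0.0362. The Hsd17b4 interaction was not called without liver 1, 2, 3 or 4 of humanized vehicle, liver 3 or 4 of humanized TCPOBOP, liver 3 or 4 of wild-type vehicle, or liver 1, 3 or 4 of wild-type TCPOBOP (11 of 16 fits that each left out 1 library, log2 0.77 to 1.09 over the 16), nor with no low-count filter.

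Acaa1a, a peroxisomal thiolase, had its highest levels in the 2 libraries that stood apart. Acaa1a was at 164, 314, 147 and 174 CPM in wild-type vehicle and at 112, 158, 108 and 105 CPM in wild-type TCPOBOP livers. Humanized livers held Acaa1a at 185, 152, 174 and 176 CPM under vehicle and at 364, 227, 190.1 and 186 CPM under TCPOBOP. In humanized liver the groups did not overlap, and in wild-type liver 3 of 4 TCPOBOP livers were below all vehicle livers. Neither difference passed (log2 -0.73 ± 0.25, adjusted p = 0.0656, and log2 0.49 ± 0.25, adjusted p = 0.321), and the interaction did (log2 1.22 ± 0.35, adjusted p = 0.0427). The Acaa1a interaction was not called without liver 1, 2, 3 or 4 of humanized vehicle, liver 2 of humanized TCPOBOP, liver 4 of wild-type vehicle, or liver 1, 3 or 4 of wild-type TCPOBOP (9 of 16 fits that each left out 1 library, log2 0.93 to 1.38 over the 16), nor with upper-quartile factors. Acaa1b, its neighbour, was called in no comparison. Because the genes are near-identical, values of the pair are less certain.

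Pex11a, which promotes the division of peroxisomes, was likewise called for the interaction alone. Pex11a was at 76.6, 58.8, 81.7 and 87.5 CPM in wild-type vehicle and at 63.7, 59.1, 49.7 and 53.8 CPM in wild-type TCPOBOP livers. Humanized livers held Pex11a at 74.6, 56.3, 77.6 and 68.0 CPM under vehicle and at 152, 84.8, 93.0 and 77.0 CPM under TCPOBOP. Humanized TCPOBOP replicate 1, at 152 CPM, was the highest library, and the other 3 were between 77.0 and 93.0 CPM. The differences were log2 -0.43 ± 0.20, adjusted p = 0.193 in wild-type liver and log2 0.56 ± 0.20, adjusted p = 0.154 in humanized liver, with an interaction of log2 0.98 ± 0.29, adjusted p = 0.0421. The Pex11a interaction was not called without liver 1, 2, 3 or 4 of humanized vehicle, liver 3 of humanized TCPOBOP, liver 1, 3 or 4 of wild-type vehicle, or liver 2, 3 or 4 of wild-type TCPOBOP (11 of 16 fits that each left out 1 library, log2 0.76 to 1.11 over the 16), nor with upper-quartile factors.

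Abcd2, an ABC transporter that imports very long-chain acyl-CoA, fell in humanized liver. Abcd2 was at 26.7, 41.5, 13.7 and 17.1 CPM in wild-type vehicle and at 15.4, 20, 12.2 and 20.4 CPM in wild-type TCPOBOP livers. Humanized livers held Abcd2 at 11.8, 14.0, 3.92 and 13.5 CPM under vehicle and at 0.738, 0.558, 5.94 and 1.90 CPM under TCPOBOP. Counts were low in humanized TCPOBOP livers, at 4 to 58, and 3 of these 4 livers were below all humanized vehicle livers. The humanized difference was log2 -2.17 ± 0.55, 4.49-fold lower, adjusted p = 0.0455. The Abcd2 humanized difference was not called without liver 1, 2 or 4 of humanized vehicle, liver 1, 2 or 4 of humanized TCPOBOP, liver 1 of wild-type vehicle, or liver 1, 2, 3 or 4 of wild-type TCPOBOP (11 of 16 fits that each left out 1 library, log2 -3.29 to -1.84 over the 16), nor with the mean of its accessions or with the compared groups alone. The lowest of these values came without humanized TCPOBOP replicate 3. In wild-type liver Abcd2 did not pass (log2 -0.54 ± 0.47, adjusted p = 0.539), and neither did the interaction (log2 -1.63 ± 0.72, adjusted p = 0.194). Abcd3, a related transporter, was lower in humanized than in wild-type vehicle liver (log2 -0.83 ± 0.26, adjusted p = 0.0424).

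The acyl-CoA thioesterases Acot1 to Acot4 lie side by side on chromosome 12 and share sequence, so that values of single members are uncertain. All 4 lay below 0 in both strains, and Acot1, Acot2 and Acot3 fell in wild-type liver (4.99% of all genes did). Acot1 (chr12:84009502-84017670), the cytosolic form, had the largest interaction of all members. Acot1 was at 4.70, 5.04, 4.13 and 9.73 CPM in wild-type vehicle and at 0.547, 1.03, 0.795 and 0.771 CPM in wild-type TCPOBOP livers. Humanized livers held Acot1 at 13.3, 4.31, 6.59 and 9.81 CPM under vehicle and at 5.02, 3.77, 9.63 and 5.69 CPM under TCPOBOP. Wild-type TCPOBOP livers were all at 1.03 CPM or less and below every other library. The fall was log2 -2.89 ± 0.40, 7.41-fold lower, adjusted p = 7.64e-05, the humanized difference log2 -0.49 ± 0.36, adjusted p = 0.517 and the interaction log2 2.40 ± 0.53, adjusted p = 0.0099, and the first and the last passed in all 16 fits that left out a library.

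Acot2, the mitochondrial form, was near the detection limit with 5 to 50 counts per library. Acot2 was at 1.17, 1.71, 1.88 and 4.55 CPM in wild-type vehicle and at 0.657, 0.805, 0.655 and 0.722 CPM in wild-type TCPOBOP livers. Humanized livers held Acot2 at 3.32, 1.16, 1.12 and 1.57 CPM under vehicle and at 0.738, 0.977, 3.28 and 0.830 CPM under TCPOBOP. The wild-type groups did not overlap (log2 -1.72 ± 0.49, 3.30-fold lower, adjusted p = 0.0257). The Acot2 wild-type difference was not called without liver 4 of wild-type vehicle, or liver 1, 3 or 4 of wild-type TCPOBOP (4 of 16 fits that each left out 1 library, log2 -1.93 to -1.17 over the 16), nor with all libraries thinned to 1 depth. In humanized liver the difference was log2 -0.26 ± 0.52, adjusted p = 0.846, and the interaction was log2 1.46 ± 0.71, adjusted p = 0.25.

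Acot3, a peroxisomal form, was lower still than Acot2 in wild-type TCPOBOP livers, but not in humanized vehicle livers. Acot3 was at 1.91, 4.95, 0.563 and 0.455 CPM in wild-type vehicle and at 0, 0.179, 0.0936 and 0.0963 CPM in wild-type TCPOBOP livers. Humanized livers held Acot3 at 6.32, 2.68, 1.40 and 3.34 CPM under vehicle and at 0.738, 0.140, 1.84 and 0.119 CPM under TCPOBOP. Wild-type TCPOBOP livers held 0 to 4 counts of Acot3 each. They were below all wild-type vehicle livers (log2 -4.21 ± 0.91, 18.5-fold lower, adjusted p = 0.00417). Dropping liver 2 of wild-type vehicle gave log2 -3.08 ± 0.93, 8.47-fold lower, adjusted p = 0.0305. The humanized difference was log2 -2.20 ± 0.77, adjusted p = 0.137, with 3 of 4 TCPOBOP livers below all vehicle livers, and the interaction was log2 2.01 ± 1.23, adjusted p = 0.372. Acot4 was called in no comparison.

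The ketone, pyruvate and pantetheine genes Bdh1, Pdk4 and Vnn1 were all called within humanized liver, where Abcd2 was the only other member called. There 1.32% of all genes were called higher and 1.19% lower. Bdh1 (chr16:31422297-31458901), which interconverts acetoacetate and beta-hydroxybutyrate, was lower in humanized than in wild-type vehicle liver and rose with TCPOBOP in humanized liver. Bdh1 was at 196, 285, 219 and 202 CPM in wild-type vehicle and at 196, 258, 170.2 and 187 CPM in wild-type TCPOBOP livers. Humanized livers held Bdh1 at 105, 125, 96.0 and 102 CPM under vehicle and at 173, 178, 190.2 and 163 CPM under TCPOBOP. Humanized vehicle livers lay below all 12 other livers. The vehicle difference was log2 -1.07 ± 0.17, 2.10-fold lower, adjusted p = 0.00157 and passed in all 16 fits that left out a library. The rise in humanized liver was log2 0.72 ± 0.17, 1.64-fold higher, adjusted p = 0.0343, and the interaction was log2 0.87 ± 0.24, adjusted p = 0.0309. The Bdh1 humanized difference was not called without liver 1, 3 or 4 of humanized vehicle, or liver 3 or 4 of humanized TCPOBOP (5 of 16 fits that each left out 1 library, log2 0.67 to 0.82 over the 16), nor with upper-quartile factors. The Bdh1 interaction was not called without liver 1, 3 or 4 of humanized vehicle, liver 3 of humanized TCPOBOP, liver 3 of wild-type vehicle, or liver 1, 3 or 4 of wild-type TCPOBOP (8 of 16 fits that each left out 1 library, log2 0.76 to 1.01 over the 16), nor with upper-quartile factors or with no low-count filter. In wild-type liver Bdh1 did not pass (log2 -0.15 ± 0.17, adjusted p = 0.645).

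Pdk4 (chr6:5483351-5496278), the kinase that inhibits pyruvate dehydrogenase and spares glucose, was the only member called higher in humanized vehicle liver. Pdk4 was at 3.82, 6.56, 6.76 and 10.1 CPM in wild-type vehicle and at 5.04, 8.77, 8.33 and 7.13 CPM in wild-type TCPOBOP livers. Humanized livers held Pdk4 at 22.2, 16.9, 17.2 and 41.1 CPM under vehicle and at 8.86, 10.0, 12.7 and 7.35 CPM under TCPOBOP. Humanized vehicle livers lay above all others, led by replicate 4. They exceeded wild-type vehicle livers (log2 1.82 ± 0.32, 3.54-fold higher, adjusted p = 0.00297), and Pdk4 fell with TCPOBOP in humanized liver (log2 -1.32 ± 0.31, 2.50-fold lower, adjusted p = 0.0349). The Pdk4 humanized difference was not called without liver 1 or 4 of humanized vehicle, liver 2 or 4 of humanized TCPOBOP, or liver 3 of wild-type TCPOBOP (5 of 16 fits that each left out 1 library, log2 -1.48 to -0.94 over the 16), nor with the compared groups alone. In wild-type liver the difference was log2 0.09 ± 0.31, adjusted p = 0.906, and the interaction did not pass (log2 -1.41 ± 0.44, adjusted p = 0.0585).

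Vnn1, a pantetheinase and a sensitive PPAR alpha target of liver, was low in humanized vehicle liver and rose with TCPOBOP there. Vnn1 was at 17.0, 6.47, 9.86 and 23.3 CPM in wild-type vehicle and at 20.1, 22.0, 13.3 and 33.3 CPM in wild-type TCPOBOP livers. Humanized livers held Vnn1 at 5.08, 3.49, 6.03 and 6.37 CPM under vehicle and at 17.3, 13.1, 16.5 and 15.9 CPM under TCPOBOP. No humanized TCPOBOP liver was within the humanized vehicle range, and the wild-type groups overlapped. The rise was log2 1.58 ± 0.35, 2.99-fold higher, adjusted p = 0.0261, and humanized vehicle livers were below wild-type ones (log2 -1.43 ± 0.35, 2.69-fold lower, adjusted p = 0.0158). The Vnn1 humanized difference was not called without liver 1, 2, 3 or 4 of humanized vehicle, or liver 3 or 4 of humanized TCPOBOP (6 of 16 fits that each left out 1 library, log2 1.45 to 1.69 over the 16). The Vnn1 vehicle difference was not called without liver 1 of humanized vehicle (1 of 16 fits that each left out 1 library, log2 -1.68 to -1.07 over the 16). In wild-type liver the difference was log2 0.65 ± 0.33, adjusted p = 0.227, and the interaction was log2 0.93 ± 0.47, adjusted p = 0.275.

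The 14 members not described in full were Acsl1, Cpt2, Crat, Crot, Acadvl, Acadl, Hadhb, Echs1, Eci1, Decr1, Decr2, Abcd3, Acaa1b and Acot4. In wild-type liver their TCPOBOP differences ran from -1.19 for Crot to 0.30 for Abcd3, 13 of 14 below 0. Crat and Crot were called lower there, as were 4.99% of all genes. In humanized liver the differences ran from -0.73 for Crat to 0.69 for Abcd3, with 11 of 14 above 0. None was called there, where 1.32% of all genes were called higher and 1.19% lower. Interactions of the 14 ran from -0.20 for Acaa1b to 1.30 for Crot, and none was called (3.48% of all genes were higher and 3.98% lower). Under vehicle, Acsl1, a major long-chain acyl-CoA synthetase of liver, was lower in humanized liver (log2 -0.82 ± 0.25, adjusted p = 0.0342), as was Abcd3. The Acsl1 vehicle difference was not called without liver 1, 3 or 4 of humanized vehicle, or liver 3 or 4 of wild-type vehicle (5 of 16 fits that each left out 1 library, log2 -0.99 to -0.58 over the 16). The Abcd3 vehicle difference was not called without liver 1, 2, 3 or 4 of humanized vehicle, liver 3 or 4 of wild-type vehicle, or liver 1, 2, 3 or 4 of wild-type TCPOBOP (10 of 16 fits that each left out 1 library, log2 -1.04 to -0.57 over the 16), nor with upper-quartile factors.

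**Figure D4:**
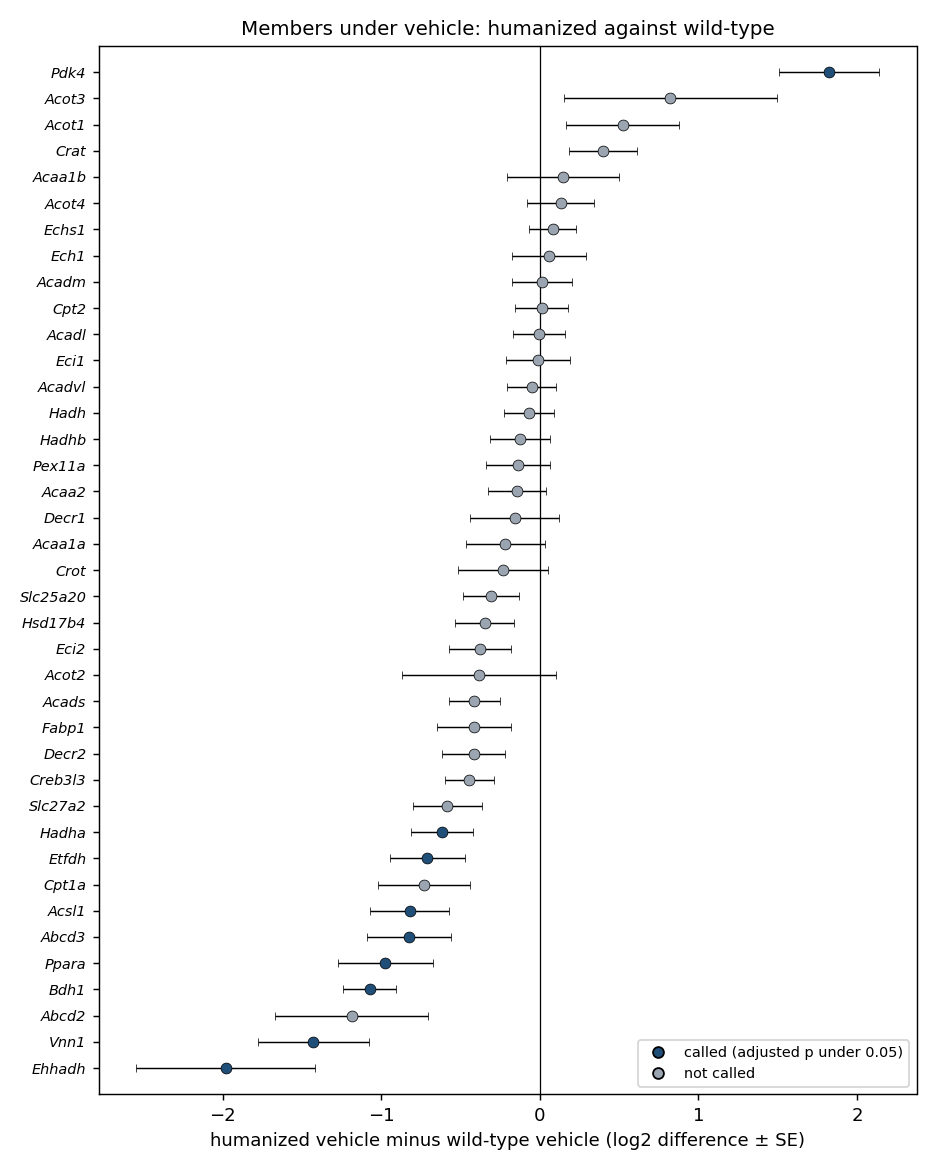
Log2 difference between humanized and wild-type vehicle livers for each of the 39 members, sorted, with bars of 1 SE; dark points are called at an adjusted p under 0.05. Pdk4 at 1.82 is the only called member above 0, and the 8 called below 0 run from Hadha at -0.62 to Ehhadh at -1.98, the latter resting on 1 wild-type library.

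Of 94 other genes of the pathway that are not members, 88 were tested. In wild-type liver 21 of them fell and 2 rose (4.99% and 8.1% of all genes), with a median log2 difference of -0.27. In humanized liver 7 rose and 1 fell (1.32% and 1.19% of all genes), and the interaction was higher for 17 and lower for 1 (3.48% and 3.98%). Under vehicle 4 were higher and 17 lower in humanized liver (7.11% and 8.95%). By role, 10 of the 23 tested PPAR alpha targets fell in wild-type liver, 4 of 18 genes of mitochondrial oxidation and ketogenesis, 2 of 9 of peroxisomal oxidation, 2 of 9 acyl-CoA synthetases and transporters, 2 of 15 partners and coregulators and 1 of 14 of peroxisome biogenesis.

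The microsomal omega-hydroxylases of the Cyp4a family, the most responsive PPAR alpha targets of rodent liver, had the deepest falls of these other genes in wild-type liver. Cyp4a10 was at 26.0, 30.2, 9.76 and 198 CPM in wild-type vehicle and at 1.75, 2.55, 0.749 and 1.16 CPM in wild-type TCPOBOP livers. Humanized livers held Cyp4a10 at 29.7, 7.22, 12.9 and 14.4 CPM under vehicle and at 24.8, 6.70, 28.5 and 2.84 CPM under TCPOBOP. Wild-type vehicle replicate 4 held the highest Cyp4a10 level, and all wild-type TCPOBOP livers were below all wild-type vehicle livers (log2 -5.40 ± 0.92, 42.3-fold lower, adjusted p = 5.07e-04), with an interaction of log2 5.37 ± 1.16, adjusted p = 0.00841. Without that library the wild-type difference of Cyp4a10 was log2 -3.81 ± 0.67, 14.0-fold lower, adjusted p = 0.00111, and the interaction log2 3.78 ± 0.88, adjusted p = 0.0166. Cyp4a14 (log2 -5.83 ± 1.09, 57.02-fold lower, adjusted p = 0.00127) and Cyp4a32 (log2 -2.42 ± 0.38, 5.34-fold lower, adjusted p = 2.48e-04) also fell, and reads of these similar genes cannot be told apart with certainty. The Cyp4a14 fall was 37.2-fold without the same library. Plin4, a lipid droplet protein, fell in wild-type liver (log2 -2.10 ± 0.54, 4.28-fold lower, adjusted p = 0.0139) and was higher in humanized than in wild-type vehicle liver (log2 2.19 ± 0.50, 4.58-fold higher, adjusted p = 0.0121). The Plin4 wild-type difference was not called without liver 1 of wild-type vehicle, or liver 3 or 4 of wild-type TCPOBOP (3 of 16 fits that each left out 1 library, log2 -2.38 to -1.70 over the 16).

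Retsat, retinol saturase, was lower in humanized vehicle liver (log2 -1.60 ± 0.32, 3.03-fold lower, adjusted p = 0.00667) and had an interaction of log2 2.47 ± 0.45, adjusted p = 0.00243, and the coactivator gene Ppargc1b had one of log2 2.59 ± 0.61, adjusted p = 0.0138. Both genes were also called lower with TCPOBOP in wild-type liver. Over the 16 fits that each left out 1 library, Retsat ran from log2 -2.31 to -1.64 and was always called. Ppargc1b ran from -1.72 to -1.05 and was not called in 4. Ppargc1a, the related coactivator gene, fell in wild-type liver (log2 -1.12 ± 0.31, 2.17-fold lower, adjusted p = 0.0227). The Ppargc1a difference was not called without liver 3 or 4 of wild-type TCPOBOP (2 of 16 fits that each left out 1 library, log2 -1.29 to -0.95 over the 16).

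In humanized liver the largest called differences among these other genes were those of Gpd2, mitochondrial glycerol phosphate dehydrogenase (log2 1.32 ± 0.25, 2.50-fold higher, adjusted p = 0.00937), Ppard, the delta form of PPAR (log2 -1.20 ± 0.23, 2.30-fold lower, adjusted p = 0.0115), Ucp2, a mitochondrial uncoupling protein family member (log2 1.00 ± 0.25, 1.99-fold higher, adjusted p = 0.0409), and Fabp2, the intestinal fatty acid binding protein (log2 0.98 ± 0.24, 1.98-fold higher, adjusted p = 0.0383). The Ucp2 humanized difference was not called without liver 1, 2, 3 or 4 of humanized vehicle, liver 2, 3 or 4 of humanized TCPOBOP, liver 1 of wild-type vehicle, or liver 1, 2 or 4 of wild-type TCPOBOP (11 of 16 fits that each left out 1 library, log2 0.88 to 1.14 over the 16), nor with upper-quartile factors. The Fabp2 humanized difference was not called without liver 1, 2, 3 or 4 of humanized vehicle, or liver 1, 3 or 4 of wild-type TCPOBOP (7 of 16 fits that each left out 1 library, log2 0.69 to 1.13 over the 16), nor with the compared groups alone. That of Gpd2 was not called with the compared groups alone. Gpd2 was also called higher with TCPOBOP in wild-type liver, but not in 10 of 16 fits that each left out 1 library (log2 0.64 to 0.81 over the 16). That wild-type call also ended with RLE or upper-quartile factors, with the mean of its accessions and with all libraries thinned to 1 depth. Under vehicle, Gpd2 (log2 -1.76 ± 0.25, 3.39-fold lower, adjusted p = 7.07e-04) and the pyruvate dehydrogenase kinase gene Pdk1 (log2 -1.46 ± 0.25, 2.75-fold lower, adjusted p = 0.00257) were lower in humanized liver. Rxra, the partner of PPAR alpha, was lower in humanized vehicle liver (log2 -0.61 ± 0.18, 1.53-fold lower, adjusted p = 0.0282). The Rxra difference was not called without liver 1, 3 or 4 of humanized vehicle, or liver 1 of wild-type vehicle (4 of 16 fits that each left out 1 library, log2 -0.70 to -0.52 over the 16). Fgf21, a fasting hormone and PPAR alpha target, did not pass the filter on low counts and was not tested. Its highest level, 6.31 CPM, was in a wild-type TCPOBOP liver, and it had 0 to 7 counts per library in the other groups.

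Several gene sets that are not part of the pathway moved with the same comparisons, and their part in the results above was not tested. In wild-type liver 3 of 10 hepatocyte markers fell with TCPOBOP (4.99% of all genes did). The summed level of the 10 markers went from 77235 to 120408 CPM under vehicle to 36787 to 54165 CPM, while in humanized liver it was 62926 to 80623 and 61835 to 80884 CPM. Albumin, Alb, was the deepest of these (log2 -1.56). All 10 hepatocyte markers lay below 0 in wild-type liver, with a median log2 difference of -0.65, against -0.54 for the members. For the interaction, 6 of 10 sinusoidal endothelial markers lay above 0 and 4 below, with a median of 0.07 and none called. All 10 hepatocyte, all 10 Kupffer cell and all 4 erythroid markers lay above 0 there, with medians of 0.70, 0.80 and 0.87 against 0.93 for the members, although only 1 of these markers, of hepatocytes, was called. No marker of another cell type was called in wild-type liver, among 10 Kupffer cell, 10 sinusoidal endothelial, 10 stellate cell, 5 cholangiocyte, 4 lymphocyte and neutrophil and 4 erythroid markers tested. Under vehicle, 8 of 10 Kupffer cell markers, 3 of 4 erythroid, 2 of 10 endothelial, 2 of 10 stellate cell and 1 of 10 hepatocyte markers (Alb) were lower in humanized liver, and 1 of 5 cholangiocyte markers (Sox9) was higher (8.95% of all genes were lower and 7.11% higher). Summed cholangiocyte markers were at 34.5 to 39.3 CPM in wild-type and 37.4 to 60.6 CPM in humanized vehicle liver. The summed Kupffer cell level was 533 to 1174 CPM in wild-type and 260.0 to 469 CPM in humanized vehicle liver, with 525 to 730 CPM and 268 to 665 CPM under TCPOBOP. Summed endothelial markers went from 443 to 887 CPM in wild-type to 275 to 361 CPM in humanized vehicle liver, stellate cell markers from 313 to 424 CPM to 232 to 251 CPM, and erythroid markers from 134 to 208 CPM to 100.4 to 124 CPM. In humanized liver 1 stellate cell and 1 lymphocyte or neutrophil marker fell with TCPOBOP (1.19% of all genes did). In bulk tissue fewer cells of a type and less RNA per cell cannot be told apart. All hepatocyte, Kupffer cell, endothelial and stellate cell markers were detected in every group, whereas the neutrophil marker Ly6g was at 0 in all wild-type livers and adipocyte markers summed to at most 5.99 CPM.

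Genes of the circadian clock differed between the humanized groups and between the vehicle groups. Of 18 tested, 7 rose and 2 fell with TCPOBOP in humanized liver (1.32% and 1.19% of all genes), and none rose and 1 fell in wild-type liver (8.1% and 4.99%). Under vehicle 4 were higher and 6 lower in humanized liver (7.11% and 8.95%). Dbp was at 81.3, 44.4, 11.6 and 75.2 CPM in wild-type vehicle and at 51.0, 63.9, 34.6 and 35.9 CPM in wild-type TCPOBOP livers. Humanized livers held Dbp at 4.35, 6.29, 3.92 and 3.97 CPM under vehicle and at 93.2, 20.1, 106 and 79.6 CPM under TCPOBOP. Dbp, a clock output gene, was thus lowest in the humanized vehicle group, in which every library was below all 12 others (log2 4.01 ± 0.55, 16.1-fold higher, adjusted p = 0.00132 for TCPOBOP in humanized liver and log2 -3.51 ± 0.54, 11.4-fold lower, adjusted p = 0.00131 under vehicle). Its wild-type difference was log2 -0.19 ± 0.47, adjusted p = 0.859. Several members, Ppara among them, are known to be under circadian control in liver. The part of this difference in the humanized and vehicle comparisons was not tested, and the sources used here do not give the time of day of each group.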

How the data were processed

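Liver RNA-seq of 16 mice was analysed as whole-number counts per RefSeq transcript accession, which the authors deposited as 1 table. Per the submitters' processing notes, STAR, DESeq2 and the build mm10 were used, with no role or version stated. The counting program, its annotation and its use of strand were not given in the sources used here, so overlapping genes and genes with near-identical copies (Acot1 to Acot4, Acaa1a and Acaa1b, Cyp4a10, Cyp4a14 and Cyp4a32) or close neighbours (Hadha and Hadhb) are less certain. Of the deposited counts of 20 or more, 74.9% are even, more than plain read tallies would give, and how this arose was not tested.

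Of 40458 accessions, 40219 were named by RefSeq and 125 by GENCODE symbols, and the accession with the highest mean count stood for each of 24970 genes (10 members have several). Gene-level totals were 6831626 to 22331760 counts per library. edgeR 4.0.16 (R 4.3.3, limma 3.58.1) fitted its quasi-likelihood model to all 16 libraries with TMM factors and group means, after its low-count filter (12913 genes, 12 residual degrees of freedom, common biological coefficient of variation 0.259), with Benjamini-Hochberg adjustment at 0.05. CPM are TMM-scaled. The heat map adds 0.5 CPM before taking log2. The code was tested on simulated data. DESeq2 1.42.0, RLE and upper-quartile factors, no filter, a filter of 1 CPM in 4 libraries, the mean of a gene's accessions, thinning to 1 depth, fits to the compared groups alone, a replicate block, and leaving out each library were tried.

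The members and all gene lists were chosen with earlier results of these data known. Members named in full were a fixed set (Ppara, Creb3l3, Cpt1a, Acadm, Hadha, Ehhadh, Acot1, Fabp1, Pdk4, Vnn1 and Bdh1), those called for the interaction, and the 4 largest called in each other comparison. Other pathway genes were named where among the 4 largest called in a comparison, plus Fgf21, Rxra and Ppargc1a, and some genes that the rule names are not reported here. Crat, Crot, Acsl1, Abcd3 and the ends of ranges were named after their values were seen. Replicate numbers were not taken to pair the samples.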

Additional observations from a re-analysis of the deposited data

Results flagged for a closer look

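In 14 of 156 sets of 4 libraries (39 members in 4 groups, 9.0%), the highest or lowest library was far from the other 3 by Dixon's criterion. Chance meets it in about 1 of 20 sets of normally distributed values. The sets here share libraries, and the rate over all genes was not computed, so no excess among the members is shown. Wild-type vehicle replicate 2 accounted for 4 of the 14, with Hadh at 184 CPM, where the remaining libraries were at 251 to 259.7 CPM, Echs1 at 162 CPM against 210.4 to 219 CPM, Ehhadh at 2041 CPM against 186 to 321 CPM and Acaa1a at 314 CPM against 147 to 174 CPM. Humanized TCPOBOP replicate 1 stood apart for Crot, at 365 CPM against 514 to 526 CPM, and for Decr1, at 226 CPM against 114 to 124 CPM. Wild-type TCPOBOP replicate 2 was high for Eci1, at 101 CPM, and for Acaa1a, at 158 CPM. The other sets were Cpt2 in humanized vehicle replicate 3, at 149 CPM, Crot in humanized vehicle replicate 1, at 375 CPM, Echs1 in humanized TCPOBOP replicate 4, at 197 CPM, Acot1 in wild-type vehicle replicate 4, at 9.73 CPM, Acot2 in humanized TCPOBOP replicate 3, at 3.28 CPM, and Acot4 in wild-type vehicle replicate 1, at 13.1 CPM.

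The TCPOBOP effect was called different between the strains for 16 members by the interaction term, all higher, where 3.48% of all genes were called higher. Leaving out 1 library at a time gave 6 to 22 such members, so not all of these calls are equally firm. The log2 value of the interaction was 2.32 for Ppara, 2.40 for Acot1, 1.64 for Slc27a2 and 1.51 for Cpt1a. For the oxidation enzymes it was 1.31 for Etfdh, 1.25 for Eci2, 1.18 for Ech1, 0.99 for Acaa2, 0.98 for Acads and 0.79 for Hadh. The remaining values were 1.22 for Slc25a20, 1.25 for Fabp1, 1.22 for Acaa1a, 0.98 for Pex11a, 0.93 for Hsd17b4 and 0.87 for Bdh1.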

How the results depend on the processing

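None of the 41 called differences of the 25 fully described members reversed in the 26 other fits, and 18 kept their call in all of them. In humanized liver the 2 higher members became 5 with DESeq2 (3.74% of all genes), 1 with upper-quartile factors (0.751%) and 10 without the 2 libraries that stood apart (9.97%). The 2 lower ones became 1 with the mean of accessions (1.03%), 0 with the compared groups alone (0.694%) and 4 without those libraries (6.46%). The interaction, higher for 16 members (3.48% of all genes), was higher for 25 without those libraries (12.2%). It was lower for none (3.98%), for 1 with DESeq2 (5.1%) and for 1 with upper-quartile factors (4.5%). Under vehicle, 1 member higher became 3 (17.9% of all genes) and 8 lower became 16 (16.7%) without those libraries, and 8 lower became 5 with upper-quartile factors (7.36%). Without the 2 libraries, 16 of 16 interaction calls and 15 of 16 wild-type calls were kept. The compared groups alone could not be fitted for the interaction.

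Leaving out 1 library at a time gave 11 to 22 members lower in wild-type liver, 0 to 6 higher and 0 to 3 lower in humanized liver, 6 to 22 higher and 0 to 1 lower for the interaction, and 1 higher and 1 to 13 lower under vehicle. The share of all genes called moved too, from 2.55% to 6.86% lower in wild-type liver, 0.261% to 4.97% higher and 0.307% to 2.38% lower in humanized liver, 2.06% to 7.35% higher and 2.35% to 6.77% lower for the interaction, and 1.89% to 12.4% higher and 2.89% to 13.9% lower under vehicle. The interaction count was 8, 9 and 7 when liver 1, 3 or 4 of humanized vehicle was dropped (2.33%, 2.46% and 2.22% of all genes), 10 and 8 for liver 3 or 4 of wild-type vehicle (2.58% and 2.7%), and 7 and 6 for liver 3 or 4 of wild-type TCPOBOP (2.15% and 2.06%). The vehicle count of lower members was 1, 5, 2 and 2 when liver 1, 2, 3 or 4 of humanized vehicle was dropped (2.89%, 8.16%, 3.23% and 3.15% of all genes), 13, 3 and 3 for liver 2, 3 or 4 of wild-type vehicle (10.4%, 6.77% and 6.76%), and 5 for each of livers 1, 3 and 4 of wild-type TCPOBOP (7.48%, 7.07% and 7.39%). In humanized liver no member was called higher when liver 1, 3 or 4 of humanized vehicle or liver 3 or 4 of humanized TCPOBOP was dropped, and none lower for liver 1 or 4 of humanized vehicle, liver 2 or 4 of humanized TCPOBOP or liver 3 of wild-type TCPOBOP. The count of higher members there was 6 for liver 2 of wild-type vehicle (3.13% of all genes), 4 for liver 1 of humanized TCPOBOP (4.97%) and 1 for liver 2 of humanized vehicle (1.02%).

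With a replicate block, 14 members were lower in wild-type liver (4.81% of all genes), 1 was lower in humanized liver (0.805%), 12 had a higher interaction (3.0%) and 6 were lower under vehicle (8.15%). Of 24 same-number pairs, 6 correlated above 0.1 (r from -0.244 to 0.581), and 4 of 16 libraries were closest to their own number. Within wild-type liver the 4 pairs had r of 0.0998, 0.581, 0.218 and 0.176, so the first fell just short of 0.1. The labels tie no number to a shared animal, litter or day, and the numbers were not taken to pair the samples. The block ended the calls of Ehhadh and Acot2 in wild-type liver, of Abcd2 in humanized liver, of Ehhadh and Etfdh under vehicle, and the interactions of Cpt1a, Hadh, Ech1 and Hsd17b4. Among the calls given for other pathway genes, it ended those of Ucp2 and Fabp2 in humanized liver and of Ppargc1b in wild-type liver.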
